A study of Mus musculus with 4 samples.

Results

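Enzymes that make or consume hydrogen peroxide and related oxidants were followed as a set of 10 genes, among 27339 genes named on a whole mouse genome microarray. The set held lactoperoxidase (*Lpo*), the dual oxidase *Duox2* and its maturation factor *Duoxa2*, the oxidase *Nox1* and its organizer *Noxo1*, the nitric oxide synthase *Nos2*, the glutathione peroxidases *Gpx1*, *Gpx2* and *Gpx3*, and the extracellular superoxide dismutase *Sod3*. Members were taken by the gene name that the array files give to each probe. *Lpo* had the largest ratio of *Rspo3* KO over control among all genes measured, and the set was chosen by this measured ratio, so all members are described in that contrast with no test. A single probe design represented each member, printed at 10 spots for *Nos2* and at 1 spot for each of the others.

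Both experiments used the colon of C57BL/6 mice on dual-colour arrays, in which a pair of RNA samples competes on each array with the dyes reversed on the next. In the first, *Myh11CreErt2/Rspo3* fl/fl mice (*Rspo3* KO) were compared with *Myh11CreErt2/Rspo3* +/+ littermates 2 weeks after induction, with 1 mouse in each channel of 2 arrays and so 2 independent pairs. In the second, epithelial cells of *Axin2CreErt2/Rosa26-tdTomato* mice (gated on the surface marker ESA) were sorted into tdTomato-positive (Axin2+) and tdTomato-negative (Axin2-) fractions 24 h after tamoxifen, and 1 pool of each from 3 mice was hybridized on both arrays, which makes 1 replicate measured on 2 arrays. The mice of the study were male and 6 to 8 weeks old. All of them carried an inducible Cre and received tamoxifen (4 mg per 25 g body weight, as 1 dose or on 3 days), the KO controls included. Cre was driven by *Myh11*, so only *Myh11*-expressing stromal cells could lose *Rspo3*. The labels name distal colon for the first experiment, whereas the methods say colon.

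Well above background, a flag the scanner software sets per spot and channel, held for 53.1% to 60.3% of the gene spots of a channel. *Rspo3* itself could not check the labels: on array 1 neither of its probes was well above background, and on array 2 one probe was, at a log2 ratio of 0.17 (KO over control). Whether that probe lies in the deleted stretch is not given in the sources used here. All 8 epithelial markers were well above background in both fractions of the sorted cells on both arrays. Some markers of other cell types carried the flag too, among them 4 to 6 of 7 B cell and 3 to 4 of 8 smooth muscle genes. Their summed log2 levels were at most 9.38 and 13.09, against at least 17.29 for the epithelial markers. The flag alone thus does not show that other cells were absent. Of 8 surface colonocyte markers, 7 were lower past 1.5-fold in Axin2+ cells.

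Dual oxidases and Nox oxidases pass electrons from NADPH to oxygen at a membrane and release hydrogen peroxide or superoxide. Secreted haem peroxidases such as lactoperoxidase use hydrogen peroxide to oxidize thiocyanate and halides into antimicrobial products, which is best known from milk, saliva and airway fluid. Glutathione peroxidases remove peroxides inside cells or in the extracellular fluid, and in the gut the epithelium is known for *Gpx2*, *Nox1* and *Duox2*.

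The probes of the members that differed are shown by their first 30 of 60 bases, 5′ to 3′, because every value given for a gene is the brightness of its probe. Nothing is in capitals in these stretches, which carry no marked site. Positions are in mm9, as in the array files: the *Lpo* probe at chr11:87620077-87620136 (minus strand), the *Duox2* probe at chr2:122108679-122108738 (minus), the *Duoxa2* probe at chr2:122128112-122128171 (plus), the *Nox1* probe at chrX:130627582-130627641 (minus), the *Noxo1* probe at chr17:24837264-24837323 (plus), and the *Gpx2* probe at chr12:77893402-77893461 (minus). The array files tie each of these to a transcript of its gene, and exon or UTR positions were not looked up.
Lpo: ccctctccctgaatgagcactggctgagga
Duox2: gcttgtcgggttccctaacccctacctctg
Duoxa2: aaatattaccactctcctgtgaaaataact
Nox1: caacaacttattgaattccctggaacaaga
Noxo1: actgggacaggaacaagggactcgggttcc
Gpx2: gggctctaagtctggggtaggttctgggcc

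The longest run that the *Lpo* probe shared with any other probe of the array was 14 bases of its 60. With the probes of the haem peroxidase genes *Mpo*, *Epx* and *Pxdn* it shared no run of 8 bases.

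Sequence upstream of the transcription start is shown for members whose ratios lay apart from 0 or moved side by side. It comes from RefSeq in GRCm38.p6, whose promoter table listed 8 of the 10 members, all but *Nos2* and *Sod3*. *Duox2* and *Duoxa2* lie head to head, and 159 bases separate the 2 genes as RefSeq bounds them (chr2:122298741-122298899, plus strand). The promoter table lists a start of *Duox2* further inside the gene, so its searched window (chr2:122298178-122298477, minus) does not overlap the printed gap. The other stretches are the 150 bases before the listed start of *Noxo1* (chr17:24696084-24696233, plus), *Gpx2* (chr12:76795555-76795704, minus) and *Lpo* (chr11:87826115-87826264, minus), and 30 bases around a motif match upstream of *Nox1* (chrX:134111926-134111955, minus). Capitals mark motif matches.
Duox2-Duoxa2 gap: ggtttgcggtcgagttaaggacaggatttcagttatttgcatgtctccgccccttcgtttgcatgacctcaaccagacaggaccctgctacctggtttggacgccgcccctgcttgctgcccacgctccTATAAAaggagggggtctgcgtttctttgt
Nox1 site: ccctcagcagGGAAAACCCCtgtggttgtc
Noxo1 upstream: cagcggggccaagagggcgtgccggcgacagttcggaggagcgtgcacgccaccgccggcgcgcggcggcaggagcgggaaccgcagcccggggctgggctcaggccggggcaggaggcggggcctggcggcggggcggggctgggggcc
Gpx2 upstream: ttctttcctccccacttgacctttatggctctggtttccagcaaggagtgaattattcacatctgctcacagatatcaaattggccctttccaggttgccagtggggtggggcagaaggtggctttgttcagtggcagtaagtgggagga
Lpo upstream: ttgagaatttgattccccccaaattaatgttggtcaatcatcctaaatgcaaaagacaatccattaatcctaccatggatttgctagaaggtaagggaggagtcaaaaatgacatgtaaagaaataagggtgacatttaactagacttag

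Windows of 300 bases, 250 before and 50 from the start on, were searched on both strands for 5 motifs. A TCF/LEF motif (CTTTGAT), an antioxidant response element (TGACNNNGC) and a STAT motif (TTCNNNGAA) had no match in the 8 windows, and stood in 3.73%, 12.4% and 8.3% of all 32851 listed promoters. A kappaB motif matched in the *Nox1* window at position -91, and in 1.63% of all promoters. A TATA box (TATAAA) matched in the *Duoxa2* window at position -30, and in 13.6% of all promoters. No match overlapped another, and a match in these letters is a description of the window, not of a bound site.

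*Lpo* stood far above its control in both *Rspo3* KO mice. Array 1 gave a log2 ratio (KO over control) of 4.32 and array 2 of 4.11, which average to 4.22 ± 0.15 (SD, n = 2 pairs), or 18.6-fold, the highest of the 15372 genes measured. The KO channels lay at 14.80 and 15.55 on the log2 intensity scale, which includes an added offset of 50, and the control channels at 10.48 and 11.44. Both KO mice were above both controls, and all 4 channels were well above background, so the control level was itself measured. Both signals were higher on array 2, by less than the gap between KO and control. Because the ratio of *Lpo* chose the set, it carries no p here.

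In the sorted epithelium *Lpo* was well above background in all 4 channels and nearly even between the fractions. Its log2 ratio of Axin2+ over Axin2- cells was 0.31 and 0.25 on the 2 arrays, with a mean of 0.28. Levels were 10.73 and 10.80 in Axin2+ cells and 10.42 and 10.55 in Axin2- cells. The sorted cells came from mice with intact *Rspo3*, and their levels are not set against those of whole colon, because the experiments were normalized separately.

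**Figure D1:**
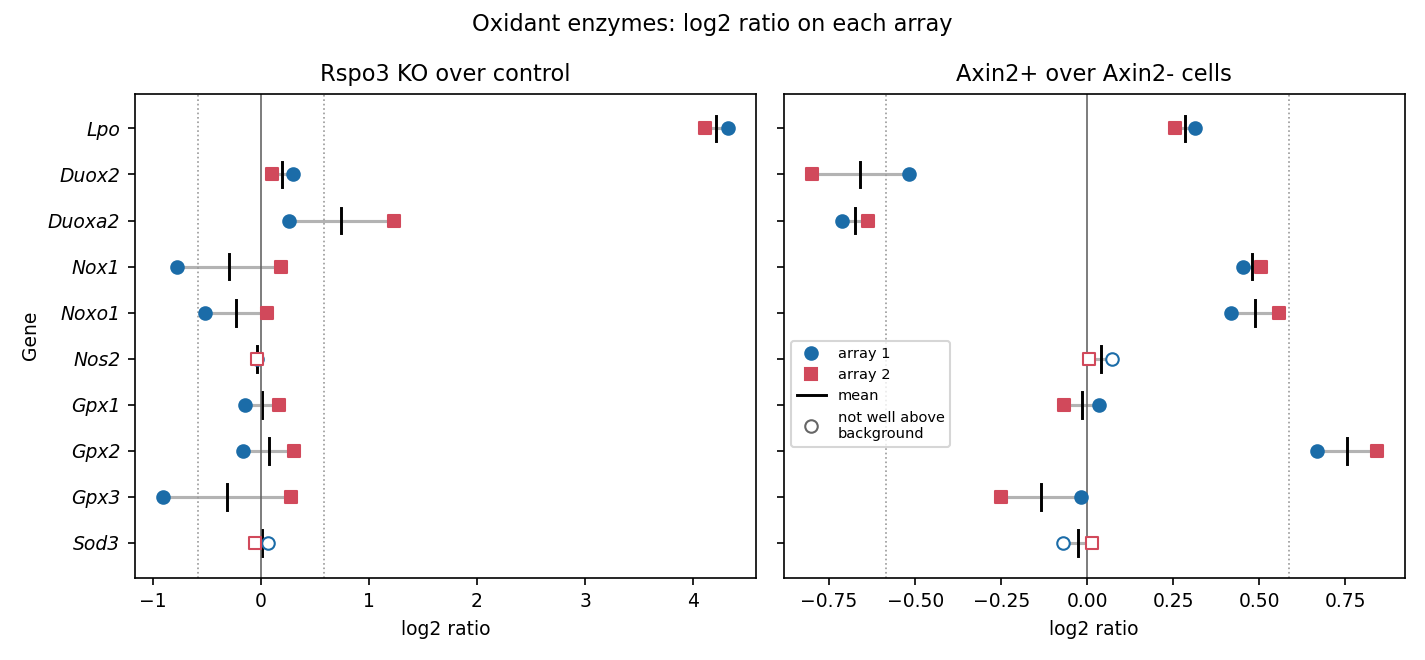
Log2 ratio of each oxidant enzyme on each array, for *Rspo3* KO over control (left) and Axin2+ over Axin2- cells (right). Circles are array 1, squares array 2, black bars their mean, open symbols genes with no channel well above background, and dotted lines the 1.5-fold limits. *Lpo* lies at 4.32 and 4.11 in the KO, apart from every other member, and the arrays lie closer together in the sorted cells than in the KO for most members.

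A mean ratio beyond 1.5-fold whose sign was shared by both arrays, called past 1.5-fold alike here, was seen in 2 of the 8 members measured in the KO, *Lpo* and *Duoxa2*, both higher. Over all genes it was seen in 4.32%, with 1.85% higher and 2.47% lower, and as *Lpo* chose the set nothing is read from the members' share. Without array 1 the 2 genes past 1.5-fold were again *Lpo* and *Duoxa2*, and without array 2 they were *Lpo*, *Nox1* and *Gpx3*, 3 genes. Levels of both KO mice lay above both controls for 3 members, *Lpo*, *Duox2* and *Duoxa2*, against 12.6% of all genes, and overlapped for the other 5. Members with a mean below 1.5-fold ranged from -0.31 to 0.20 on the log2 scale.

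Of the dual oxidase pair, the maturation factor lay above 1.5-fold in the KO and the oxidase did not. *Duoxa2*, which carries Duox2 protein out of the endoplasmic reticulum, had log2 ratios of 0.26 and 1.23 in the KO, a mean of 0.75 ± 0.69 (SD, n = 2 pairs). Its KO channels were at 10.19 and 10.74 and its control channels at 9.93 and 9.51, so the groups did not overlap. With loess, array 2 alone held a ratio past 1.5-fold. With each array centred on its median in place of loess, both arrays did, at 0.97 and 0.64. *Duox2*, the oxidase itself, had ratios of 0.30 and 0.10 with levels of 7.01 and 6.93 in the KO and 6.72 and 6.83 in the controls. Its control channel on array 1 was not well above background, so its values rest on 3 of 4 channels. With the log ratios of the scanner software its ratios became 1.48 and 0.24, a mean of 0.86, and past 1.5-fold.

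In the sorted cells both genes were lower in the Axin2+ fraction. *Duox2* had log2 ratios of -0.52 and -0.80, a mean of -0.66 or 1.58-fold lower in Axin2+ cells, and *Duoxa2* of -0.71 and -0.64, a mean of -0.67 or 1.60-fold lower. *Duox2* levels were 7.17 and 7.04 in Axin2+ cells against 7.69 and 7.84 in Axin2- cells. *Duoxa2* levels were 7.76 and 7.98 against 8.47 and 8.62. All 8 channels of the pair were well above background, and neither gene's fractions overlapped. Surface colonocyte markers were lower too, with a median log2 ratio of -2.33 over the 8 and a summed level of 15.40 to 15.69 in Axin2+ and 17.45 to 17.65 in Axin2- cells. Their part in the ratios of *Duox2* and *Duoxa2* was not tested.

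The *Nox1* complex showed no shared direction in the KO. *Nox1*, the catalytic subunit, had log2 ratios of -0.77 and 0.19 (mean -0.29 ± 0.68, SD, n = 2 pairs). *Noxo1*, which organizes the complex at the membrane, had ratios of -0.52 and 0.06 (mean -0.23 ± 0.41). For both genes the KO was lower on array 1 and slightly higher on array 2. Levels overlapped for both: *Nox1* was at 6.67 and 7.04 in the KO and at 7.45 and 6.85 in the controls, and *Noxo1* at 13.66 and 13.86 against 14.18 and 13.80.

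Both genes were higher in Axin2+ than in Axin2- cells by less than 1.5-fold. *Nox1* had log2 ratios of 0.45 and 0.50, and *Noxo1* of 0.42 and 0.56, with means of 0.48 and 0.49. *Nox1* levels were 7.41 and 7.38 in Axin2+ cells and 6.96 and 6.87 in Axin2- cells, without overlap. *Noxo1* was far from the background, at 13.39 and 13.37 against 12.97 and 12.82, so a limit of dim signal touches *Nox1* alone. With a smaller offset of 16 the mean of *Nox1* passed 1.5-fold, and with the software log ratios it was 0.91.

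**Figure D2:**
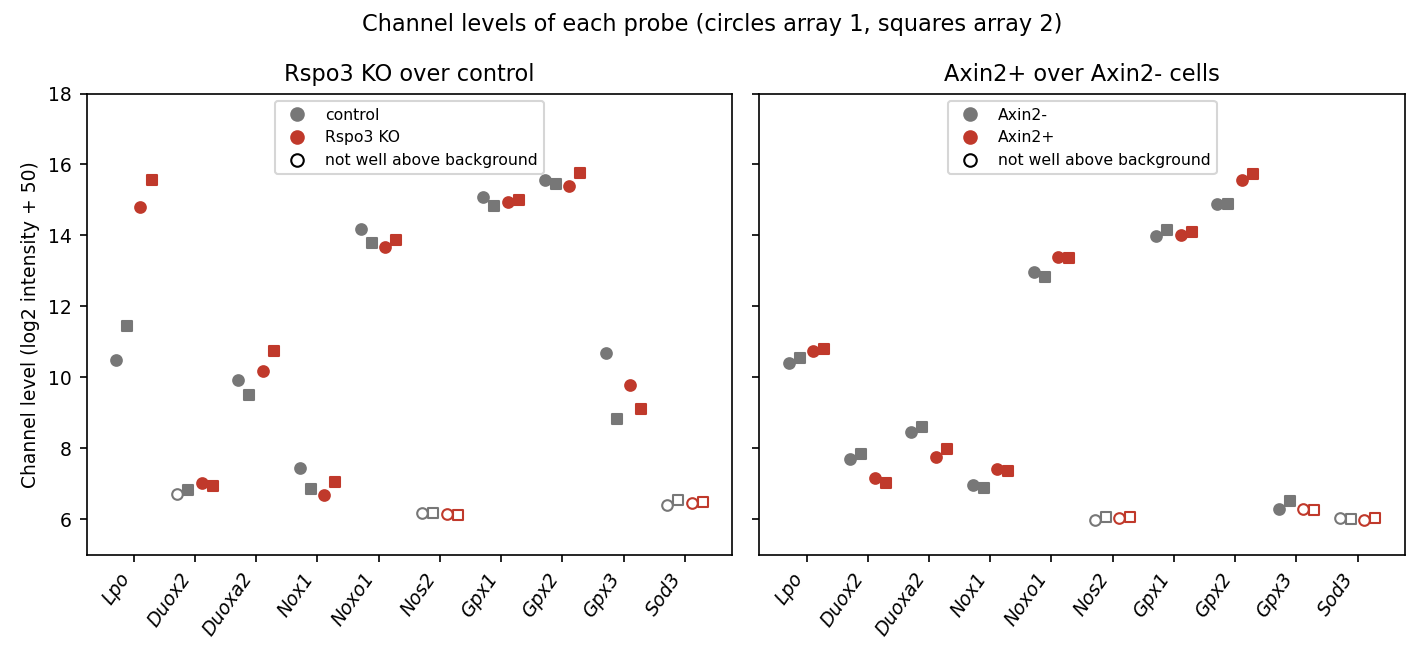
Level of each member in each channel, as log2 intensity with the offset of 50, for the KO experiment (left) and the sorted cells (right). Grey marks control or Axin2- channels, red KO or Axin2+ channels, circles array 1, squares array 2, and open symbols a channel not well above background. *Lpo* lies at 10.48 and 11.44 in the controls and at 14.80 and 15.55 in the KO, while *Nos2* and *Sod3* have open symbols throughout. Probes differ in brightness, so heights are compared within a gene.

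*Nos2*, the inducible nitric oxide synthase of inflamed epithelium and macrophages, had no channel well above background in either experiment. Its log2 ratios, averaged over 9 or 10 spots, were -0.03 and -0.04 in the KO and 0.07 and 0.01 in the sorted cells, and they carry no level. The arrays set no direction for it.

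The glutathione peroxidases *Gpx1* and *Gpx2* were on average near even between KO and control in whole colon. *Gpx1*, found in most cells, had log2 ratios of -0.14 and 0.17 in the KO (mean 0.01 ± 0.22, SD, n = 2 pairs), and *Gpx2*, the gastrointestinal form, of -0.16 and 0.31 (mean 0.07 ± 0.34). For each, KO and control levels overlapped and the sign turned between arrays. *Gpx1* lay at 14.93 and 15.01 in the KO and at 15.07 and 14.84 in the controls. *Gpx2* lay at 15.40 and 15.76 against 15.57 and 15.45. Both probes were bright and unsaturated.

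*Gpx2* had the highest ratio of the 8 members measured in Axin2+ cells. Its log2 ratios were 0.67 and 0.84, a mean of 0.75 or 1.69-fold, and it ranked 660 of the 15879 genes measured. Levels were 15.56 and 15.72 in Axin2+ cells and 14.89 and 14.88 in Axin2- cells. *Gpx1* had ratios of 0.03 and -0.07 in the same cells, with levels of 14.02 and 14.09 against 13.99 and 14.16. The 2 bright glutathione peroxidases thus had unlike ratios in the sorted cells, *Gpx2* past 1.5-fold and *Gpx1* near 0. With the software log ratios *Gpx2* was at 0.49 and 0.57, short of 1.5-fold.

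*Gpx3*, the secreted plasma form, was well above background in all 4 channels of whole colon, and in sorted cells in the Axin2- channels alone. In the KO its log2 ratios were -0.90 and 0.28 (mean -0.31 ± 0.84, SD, n = 2 pairs), the widest gap between arrays in the set at 1.18. The control mice differed more than KO from control did, at 10.69 and 8.84, and the KO mice lay between them at 9.78 and 9.11. In sorted cells the Axin2+ channel was not well above background on either array and the Axin2- channel was on both. The mean ratio, 1.098-fold higher in Axin2- cells, thus rests on a dim Axin2+ side, and it does not set the size of the difference. The ratios on the 2 arrays were -0.02 and -0.25, and with the software log ratios they were -1.29 and -0.89. *Sod3*, which removes superoxide outside cells, had no channel well above background, with ratios of 0.06 and -0.05 in the KO and -0.07 and 0.01 in the sorted cells.

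In Axin2+ against Axin2- cells, 3 of 8 members measured were past 1.5-fold alike on both arrays, 1 higher (*Gpx2*) and 2 lower (*Duox2*, *Duoxa2*), against 14.8% of all genes (7.87% higher and 6.92% lower). No p can be given for 1 replicate. Centring each array on its median in place of loess left 0 of 8, since all 3 then differed in sign between the 2 arrays, *Duox2* at 0.15 and -1.34, *Duoxa2* at 0.19 and -1.49 and *Gpx2* at 1.65 and -1.02. The 2 arrays of the same pools differed by a median of 0.12 (log2) over the members measured and also over all genes. The KO arrays, which hold different mice, differed by a median of 0.53 over the members and 0.35 over all genes. The same direction on both arrays was seen for 7 of 8 members in the sorted cells and for 3 of 8 in the KO, where it was seen for 82.7% and 44.2% of all genes. Of the 8 members measured in the KO, 5 had the same sign of Cy5 over Cy3 on both arrays. As dye and pair change together there, dye and mouse cannot be told apart.

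**Figure D3:**
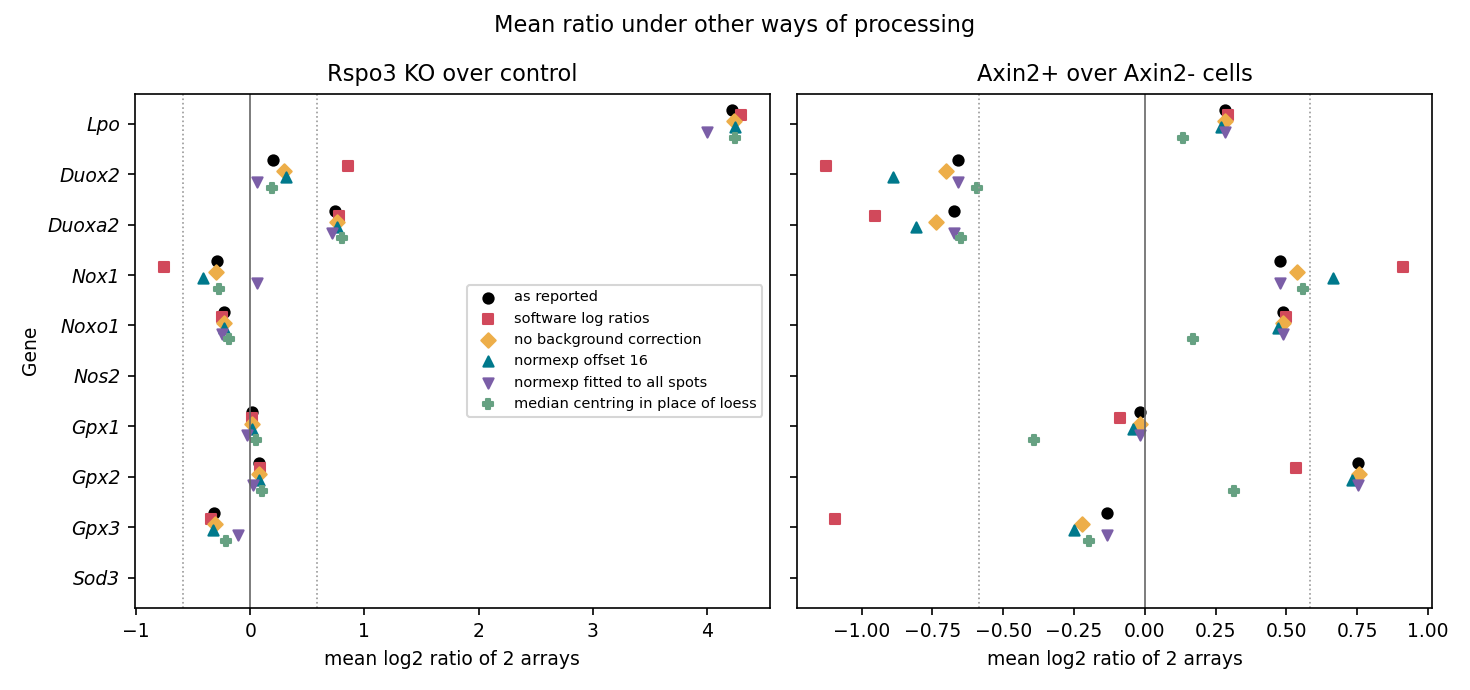
Mean log2 ratio of each member under 6 ways of processing, in the KO (left) and the sorted cells (right), with the 1.5-fold limits as dotted lines. *Lpo* stays between 4.00 and 4.30 in the KO, while *Duox2* spans 0.06 to 0.86 there and *Gpx3* -1.09 to -0.13 in the sorted cells. *Nos2* and *Sod3*, not well above background, have no points.

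Other oxidant genes of the same pathways were read beside the members in the KO. Of 68 related genes in 6 lists, 57 were measured, and 2 were past 1.5-fold alike on both arrays, both higher, a share of 3.51% beside 4.32% of all genes. Array 2 alone put 8 of them past 1.5-fold and array 1 alone 12. The share of all genes past 1.5-fold on a single array was not counted, so nothing is read from these numbers. *Arg2*, a mitochondrial arginase, had log2 ratios of 2.50 and 1.37 (mean 1.93 ± 0.80, SD, n = 2 pairs), with an adjusted p of 0.0757 by limma across all genes. *Gch1*, which makes the nitric oxide synthase cofactor tetrahydrobiopterin, had ratios of 0.01 and 1.23 (mean 0.62, limma adjusted p 0.9997). By limma 0 of the 57 passed an adjusted p of 0.05, against 0.241% of all genes. At an unadjusted limma p under 0.05 there were 2 of the 57, beside 714 of the 15372 genes measured. The 2 were *Arg2* and *Ptgs1*, a cyclooxygenase with ratios of 0.42 and 0.65. *Arg2* passed with an adjusted p of 0.0491 when both channels had to be well above background, and passed with software log ratios (0.0166), but with median centring the lowest adjusted p of the 57 was 0.99998.

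By list, the median of the mean log2 ratios in the KO was 0.19 for 5 haem peroxidases and cyclooxygenases, -0.02 for 9 NADPH oxidase genes, 0.30 for 7 nitric oxide and arginine genes, -0.01 for 19 glutathione, thioredoxin and peroxiredoxin genes, 0.04 for 7 superoxide dismutase and Nrf2 genes and 0.04 for 10 selenoprotein genes, beside -0.01 over all genes. *Mpo*, the neutrophil peroxidase, had ratios of 0.16 and 0.29. *Duoxa1*, the maturation factor of the other dual oxidase, had ratios of 0.10 and 0.10. *Noxa1*, the activator of *Nox1*, was at -0.03 and -0.26.

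The related genes were read in the sorted fractions too. Of 53 measured, 11 were past 1.5-fold alike, 1 higher and 10 lower in Axin2+ cells, a share of 20.8% beside 14.8% of all genes, of which 6.92% were lower. The median log2 ratio was -0.19 over the 53 and -0.005 over all genes. The higher one was *Noxa1*, at 1.23 and 0.97, so *Nox1*, *Noxo1* and *Noxa1* all had positive ratios, of which *Noxa1* alone passed 1.5-fold. Lower were *Ptgs1* (-1.58 and -1.19), *Rac2*, a GTPase of blood cell oxidases (-1.13 and -0.99), and *Arg2* (-1.43 and -1.34), *Gch1* (-1.29 and -1.49) and *Ass1* (-0.46 and -0.71) of the arginine and nitric oxide list.

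The other 5 lower in Axin2+ cells came from the glutathione, thioredoxin and peroxiredoxin list and the selenoprotein list. *Prdx6* had log2 ratios of -1.63 and -1.50 and *Prdx5* of -1.14 and -1.06, both peroxiredoxins, and *Srxn1*, which restores oxidized peroxiredoxins, of -1.16 and -1.15. Among selenoproteins, *Selenop*, the selenium carrier, was at -2.91 and -2.75 and *Selenom* at -0.59 and -0.58. *Arg2* and *Gch1* were thus lower in Axin2+ cells and had a higher mean in the KO, as *Duoxa2* did. In the KO *Gch1* (0.01 and 1.23) and *Duoxa2* (0.26 and 1.23) were past 1.5-fold on array 2 alone. For *Duoxa2* that held with loess, while median centring put both arrays past 1.5-fold (0.97 and 0.64). No other related gene lower in Axin2+ cells was past 1.5-fold alike in the KO.

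**Figure D4:**
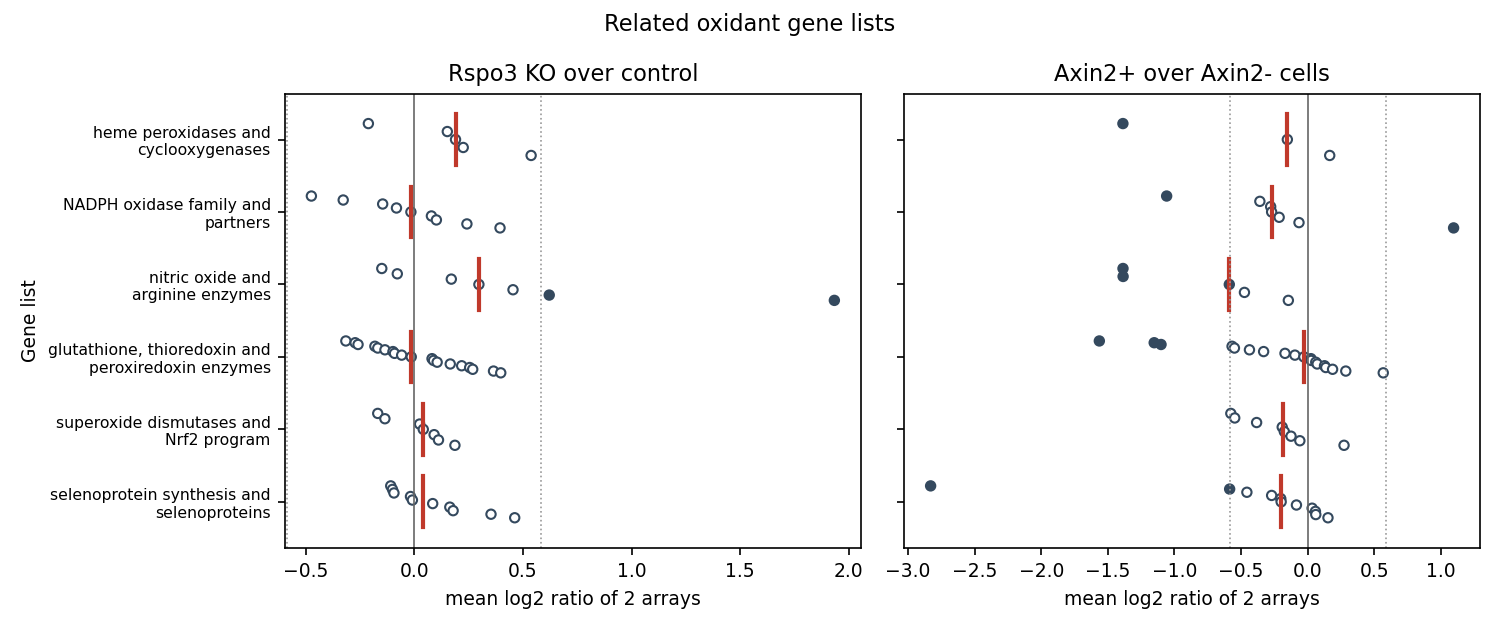
Mean log2 ratio of each related gene measured, by list, in the KO (left) and in the sorted cells (right). Filled points are past 1.5-fold alike on both arrays, red bars are list medians and dotted lines the 1.5-fold limits. In the KO 2 points are filled, *Arg2* and *Gch1*, and in the sorted cells 11 are, 10 of them lower in Axin2+ cells.

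Cell type markers were read beside the ratio of *Lpo*, since in whole colon more cells of a type and more RNA per cell cannot be told apart. Of 9 neutrophil genes on the array 5 were measured and 0 were past 1.5-fold alike. Their list had a summed level of 11.65 in the KO against 10.58 in the control on array 1. On array 2 it was 10.99 against 11.32, so the direction turned between pairs. By limma 0 of the 5 neutrophil genes passed, and 0 at an unadjusted p under 0.05. Of 5 eosinophil genes 2 were measured, with summed levels of 8.73 to 8.81 in the KO and 8.74 to 8.80 in the controls, and *Epx*, the eosinophil peroxidase, was not measured. Of 9 macrophage genes 1, *Adgre1*, was past 1.5-fold (0.72 and 0.66, limma adjusted p 0.740). Their median log2 ratio was 0.21, with 6 higher on both arrays and 0 lower on both. The summed level was higher in the KO within both pairs, at 14.04 against 13.80 on array 1 and 13.71 against 13.41 on array 2. Of 6 epithelial genes measured, 1 passed limma, the transcription factor *Cdx2*, at 2.33 and 1.91 with an adjusted p of 0.0199. The median log2 ratio of the 6 was -0.02, with 1 (*Cdx2*) higher on both arrays and 0 lower on both.

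B cell genes went the other way from *Lpo*. All 5 measured were lower in both KO mice, with a median log2 ratio of -1.89. Of these, *Ms4a1* (limma adjusted p 0.0128) and *Ighm* (0.0251) passed. The summed level of the B cell list was 10.96 to 11.11 in the KO and 12.47 to 13.24 in the controls. Fibroblast genes had a median of 0.30 and smooth muscle genes of 0.24, with 0 past 1.5-fold and 0 past limma's adjusted p in either list, and at an unadjusted p under 0.05 there was 1 fibroblast gene and no smooth muscle gene. Of 8 surface colonocyte genes 4 were measured, and 1, *Guca2b*, was lower past 1.5-fold alike (-0.97 and -0.47, limma adjusted p 0.771). The summed level over the 8 was higher in the KO within both pairs, at 15.40 against 14.72 on array 1 and 16.56 against 16.14 on array 2. Well above background were 4 of the 8 in each channel of array 1 and 5 on array 2, so the sums are not compared between arrays. A gene can be missing from such a count because its spots were left out as outliers. Which genes were dim and which were left out was not looked up, so a missing gene is not shown to be dim. Among the measured genes *Clca4a* was higher on both arrays and *Guca2b* lower on both. *Car4* (1.01 and -0.30) and *Slc26a3* (0.65 and -1.23) turned sign. The part of these cell types in the members' ratios was not tested.

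The measured genes next to *Lpo* had ratios far below its own. Of the 5 protein-coding genes on either side in RefSeq order, 6 were measured, and their mean log2 ratios in the KO ran from -0.68 to 0.22. *Mpo*, the nearest on one side, was at 0.16 and 0.29. On the other side *Mks1* and *Epx*, the nearest, were not measured, and 1 of 5 genes there was. The lowest was *Rnf43*, a ubiquitin ligase that removes Wnt receptors, at -0.63 and -0.73 (limma adjusted p 0.761). *Rnf43* was higher in Axin2+ cells, at 1.14 and 1.26.

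**Figure D5:**
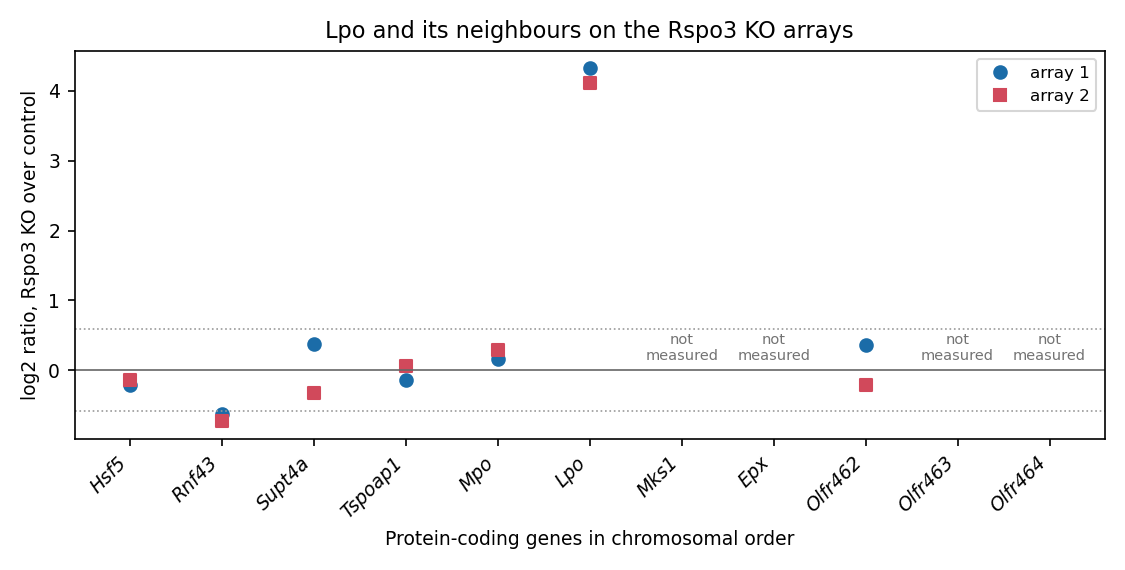
Log2 ratio of KO over control on each array for *Lpo* and the 5 protein-coding genes on either side of it, in chromosomal order. Circles are array 1, squares array 2, and dotted lines the 1.5-fold limits. *Lpo* is at 4.32 and 4.11, and the 6 measured neighbours have means from -0.68 to 0.22.

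Over the 4 log2 ratios, the 5 genes nearest to *Lpo* among 13622 measured in both experiments lay at Euclidean distances of 1.33 to 2.54. They were *LOC633417*, which the array files describe as similar to a TL class I histocompatibility antigen (3.60 and 3.24 in the KO), the non-coding *BC064078* (2.54 and 3.34), *Pam*, a peptide-amidating enzyme (3.37 and 2.62), the class I gene *H2-T3* (2.63 and 2.74) and *Dusp16*, a phosphatase of MAP kinases (2.67 and 2.24). *Pam* was lower in Axin2+ cells, at -0.58 and -0.78, where *Lpo* was slightly higher. All 5 had smaller ratios than *Lpo* on both KO arrays. *LOC633417* and *H2-T3* belong to a family of similar genes, and their probes may share signal. The measure uses the same ratios as the choice of *Lpo* and carries no test.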

How the data were processed

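Total RNA was labelled with Cy3 and Cy5 and hybridized to whole mouse genome arrays with dyes reversed. The deposited files are Agilent Feature Extraction (11.5.1.1) output with spot intensities, local background and flags. The deposited log10 ratios, already background-corrected and dye-normalized by the authors' software, and the series table, which equals them, were used as alternatives. The deposited error score of each log ratio gave weights in one alternative, and the deposited p-value of each log ratio was not used. The authors combined arrays in Rosetta Resolver with an error model, a step that cannot be repeated here. The labels give TRIzol for all RNA, and the methods a spin column for whole colon.

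Mean intensities were corrected with normexp (offset 50, limma 3.58.1, R 4.3.3), with 66 and 6 background-outlier spots of the KO arrays kept out of the fit, then loess-normalized within each array. Control and outlier spots were left out, spots of a probe averaged, and signs turned to KO over control and Axin2+ over Axin2-. Levels are channel values after Aquantile scaling within an experiment. A gene took its brightest probe and counted as measured if, on each array, at least 1 channel of that probe was well above background. A probe whose spots were all left out on an array had no value there, so its gene could go unmeasured without being dim. Calls required a mean beyond 1.5-fold and 1 sign on both arrays. limma tested the 2 KO ratios against 0 with Benjamini-Hochberg adjustment, two-sided, at 0.05, with 1 residual degree of freedom per gene and 37 genes called (714 at an unadjusted p under 0.05). The number of arrays limits the precision, and nothing beyond 1 mouse per channel is known of the pairs. Only the limma test and the fold rule were tried on simulated ratios, and the steps before them were not.

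Names came from RefSeq for 33752 of 41174 probes (27761 by accession, 5531 by symbol, 460 by synonym), and 7422 kept the name of the files. Probe positions are mm9. Members and lists were chosen with earlier results of these data known. Named were all members, related genes past 1.5-fold alike (at most 4 per list) or past limma's adjusted p, and the 5 genes nearest to *Lpo*. *Mpo*, *Duoxa1*, *Noxa1* in the KO, *Ptgs1* in the KO, the marker genes and *Rnf43* were named after their values were seen.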

Additional observations from a re-analysis of the deposited data

How the results depend on the processing

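*Lpo* kept its direction in the KO under all alternatives. Its mean was 4.22 to 4.30, with the exception of 4.00 when normexp was fitted to all spots. With one array left out its ratio was 4.11 to 4.32. With median centring its 2 arrays lay further apart, at 5.12 and 3.37, so their closeness depends on loess. Members past 1.5-fold numbered 2 in the KO, 1 (*Lpo*) at 2-fold, 3 with software log ratios or the series table, and 2 to 3 with one array left out. In the sorted cells they numbered 3, then 0 at 2-fold, 0 with median centring and 4 with software log ratios or an offset of 16, and 2 to 3 with one array left out. In the KO, limma's adjusted p was passed by 0 related genes, and 1 (*Arg2*) under 5 alternatives: the filter on both channels (adjusted p 0.0491), no background correction (0.0172), an offset of 16 (0.000544), the software log ratios and the series table; over all alternatives the lowest adjusted p among related genes ran from 0.000544 to 0.99998. Related genes past 1.5-fold in the KO numbered 2, 1 at 2-fold, with no background correction or with an offset of 16, 3 with median centring, 5 (4 higher, 1 lower) with software log ratios or the series table, and 8 to 12 with one array left out. Related genes past 1.5-fold in sorted cells numbered 11, 19 with software log ratios or the series table, and 10 to 14 with one array left out. They numbered 16 with an offset of 16, 12 with no background correction and 9 at 2-fold. With median centring there were 9, of which 0 were higher in Axin2+ cells, so *Noxa1* was then not among them. The cause of these changes was not tested. Over all genes, limma called 37 in the KO, 5 with the mean over probes, 8 with median centring, 70 with no background correction, 0 with no filter, 1 with normexp fitted to all spots and 128 with an offset of 16 or software log ratios. Genes past 1.5-fold numbered 664 in the KO, 361 with normexp fitted to all spots and 1476 with software log ratios, and 2348 in the sorted cells, 1090 with median centring and 5184 with software log ratios. Leaving out an array leaves limma no residual degree of freedom, so no test was made then. No paired analysis was possible because none can be added to the limma test, which is itself paired: each KO ratio is 1 KO and control pair on 1 array. Signal near background limits *Duox2*, *Nox1* and *Gpx3*, whose ratios the offset draws towards 0.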
